A study of Mus musculus with 2 samples.

Results

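The 9 loci described here encode 6 miRNAs grouped as neuronal, miR-128, miR-137, miR-138, miR-129, miR-149 and miR-153, in the midbrain of mouse embryos. They are Mir128-1, Mir128-2, Mir137, Mir138-1, Mir138-2, Mir129-1, Mir129-2, Mir149 and Mir153, chosen by name and matched by gene identifier to 9 of the 1973 miRNA loci counted in each library. Small RNA of a stated size under 30 nt was sequenced from total RNA of B6NCrl embryos at day 14.5 of gestation, an age at which the midbrain holds both dividing progenitors and young neurons. The series held 1 group, midbrain, with 2 replicates. Each is labelled as the midbrain of a single embryo collected on its own day. The labels also give both replicates the same donor identifier and pup number and a sex of mixed male and female, so the SDs measure the spread between these 2 samples, which may be in part technical. No second tissue, age or treatment was present, and no test between conditions could be made. The values below are therefore levels, with their spread and their order.

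A miRNA gene is transcribed as a long precursor, from which a hairpin is cut and one or both of its arms are kept as mature RNAs of about the length sequenced here. The mature RNA guides Argonaute proteins to messenger RNAs, mainly through its seed, bases 2 to 8 from the 5′ end, and lowers the output of those messages. Several of the miRNAs are known from neurons, while for miR-149 no such role is given here. MiR-128 limits the excitability of neurons in the mouse brain, miR-137 acts in neuronal differentiation and at synapses, and miR-138 restrains the growth of dendritic spines in rat hippocampal neurons. MiR-129 takes part in the scaling down of synapses in rat neurons, and miR-153 acts on genes of vesicle release at zebrafish synapses.

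The mature arms best known for each miRNA are printed 5′ to 3′ from RefSeq on build GRCm38.p6, with the seed in capitals, because the seed sets which messages each of them can pair with.
miR-149-5p: uCUGGCUCcgugucuucacuccc
miR-137-3p: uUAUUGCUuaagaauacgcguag
miR-153-3p: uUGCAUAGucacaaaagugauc
miR-128-3p: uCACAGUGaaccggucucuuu
miR-138-5p: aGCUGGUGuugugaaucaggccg
miR-129-5p: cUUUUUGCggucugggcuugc
These 6 seeds differ from each other, and no other mature name among the 1679 in the RefSeq table shares one of them. All 9 loci had a hairpin in that table, at the same positions as in GENCODE, and together they are listed with 14 mature names and 13 seeds. Only the 5p arms of Mir128-1 and Mir128-2 share a seed under different names. The opposite arm of Mir149, miR-149-3p, shares its seed with 3 other names, miR-1943-5p, miR-6967-5p and miR-7016-5p. Their loci held at most 12 sense reads in a library. The deposited counts are per hairpin, so that each value below sums the reads of both arms that were assigned to that hairpin. Reads of an arm that several hairpins share can be missing from it, as set out below for the 2-copy families.

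All 9 loci were detected, with at least 10 sense reads in each replicate, against 20.1% of all 1973 loci (397). Sense reads, those on the annotated strand, numbered 7302633 in replicate 1 and 3966727 in replicate 2. Levels are counts per 1000000 sense reads (CPM), in which 1 read equals 0.137 CPM in the first library and 0.252 CPM in the second. The 9 loci took 3.73% of the sense reads of replicate 1 (exact Clopper-Pearson 95% interval 3.71 to 3.74) and 4.23% of those of replicate 2 (4.21 to 4.25), a mean of 3.98% ± 0.355 (SD, n = 2). Their median level was 10.03 on the log2(CPM + 1) scale, beside 6.93 over all 397 detected loci. Intervals here cover counting error only, because each is computed from the reads of a single library. PCR copies of a molecule are counted as separate reads, so the intervals can be too narrow even for that error. A CPM counts whole small RNA reads and is not divided by length; how well each sequence was captured during library preparation was not measured.

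Mir149, Mir137 and Mir153, which have no second locus of the same name here, were the highest of the 9. Mir149 had 124255 sense reads (17015 CPM) in replicate 1 and 71446 (18011 CPM) in replicate 2, a mean of 17513 ± 704 CPM (SD, n = 2). Mir137 had 83947 reads (11495 CPM) and 55280 reads (13936 CPM) in replicates 1 and 2, a mean of 12716 ± 1726 CPM. Mir153 had 38554 reads (5279 CPM) and 25673 reads (6472 CPM), a mean of 5876 ± 843 CPM. In both libraries Mir149 was above Mir137 and Mir137 above Mir153, and the values of the 3 loci did not overlap. Together these 3 loci held 90.7% ± 0.139 of the reads of the 9, and Mir149 alone held 44.1% ± 2.16. Mir149 ranked in place 12 of all loci by mean CPM, Mir137 in place 17 and Mir153 in place 31.

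**Figure D1:**
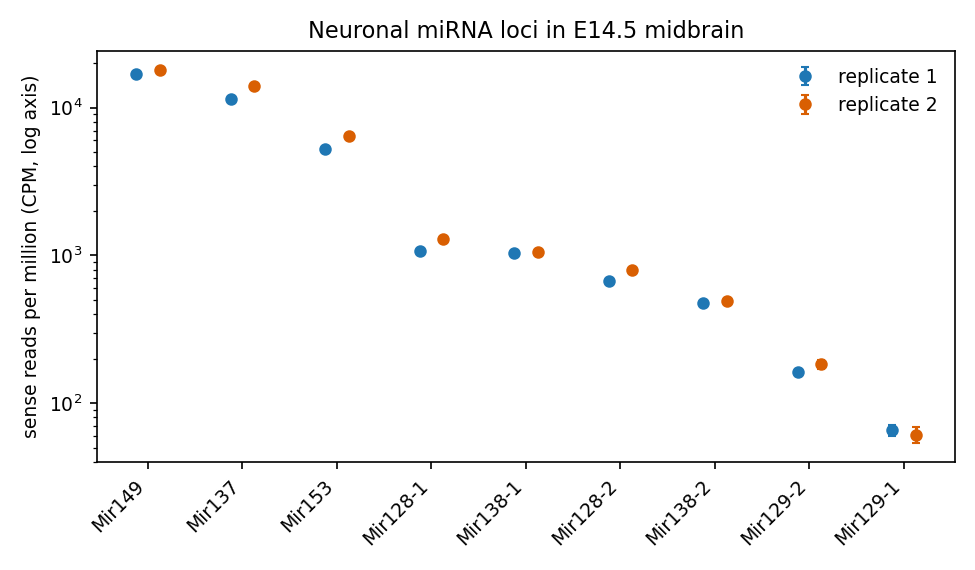
Level (CPM, log axis) of the 9 loci in replicate 1 (blue) and replicate 2 (orange), with exact Poisson 95% intervals that cover counting error only and are mostly smaller than the points. Mir149, Mir137 and Mir153 lie at or above 5279 CPM in both libraries, and the 6 loci of the families with a second copy lie between 60.8 and 1288 CPM.

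The 6 loci of the miR-128, miR-138 and miR-129 families stood lower. Mir128-1 had 7807 reads (1069 CPM) in replicate 1 and 5111 (1288 CPM) in replicate 2, a mean of 1179 ± 155 CPM. Mir128-2 had 4900 reads (671 CPM) and 3165 reads (798 CPM), a mean of 734 ± 89.7 CPM. Both copies were higher in replicate 2 than in replicate 1 in these CPM. Mir138-1 had 7609 reads (1042 CPM) and 4161 reads (1049 CPM), a mean of 1045 ± 4.97 CPM, the closest repeat of the 9 in these CPM. Mir138-2 had 3484 reads (477 CPM) and 1956 reads (493 CPM), a mean of 485 ± 11.3 CPM. Both copies of miR-138 thus repeated within 2.33% of their mean, as a coefficient of variation. Mir129-2 had 1182 reads (162 CPM) and 727 reads (183 CPM), a mean of 173 ± 15.1 CPM. Mir129-1 had 478 reads (65.5 CPM) and 241 reads (60.8 CPM), a mean of 63.1 ± 3.32 CPM. The miR-129 loci were the lowest of the 9 in both libraries, and Mir129-1 was the only one of the 9 with the lower CPM in replicate 2.

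The level spanned 278-fold from Mir149 to Mir129-1. In descending order the loci ran Mir149, Mir137, Mir153, Mir128-1, Mir138-1, Mir128-2, Mir138-2, Mir129-2 and Mir129-1, and the order was the same in each library. Of the 8 pairs of neighbours in this order, 7 differed by more than the larger of their SDs. The exception was Mir128-1 and Mir138-1, whose means differed by 133 CPM against an SD of 155 CPM for Mir128-1. In replicate 1 they stood at 1069 and 1042 CPM, and the order of these 2 loci was not resolved. The widest step was that from Mir153 to Mir128-1, a ratio of 4.98 ± 0.0599 (SD, n = 2).

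**Figure D2:**
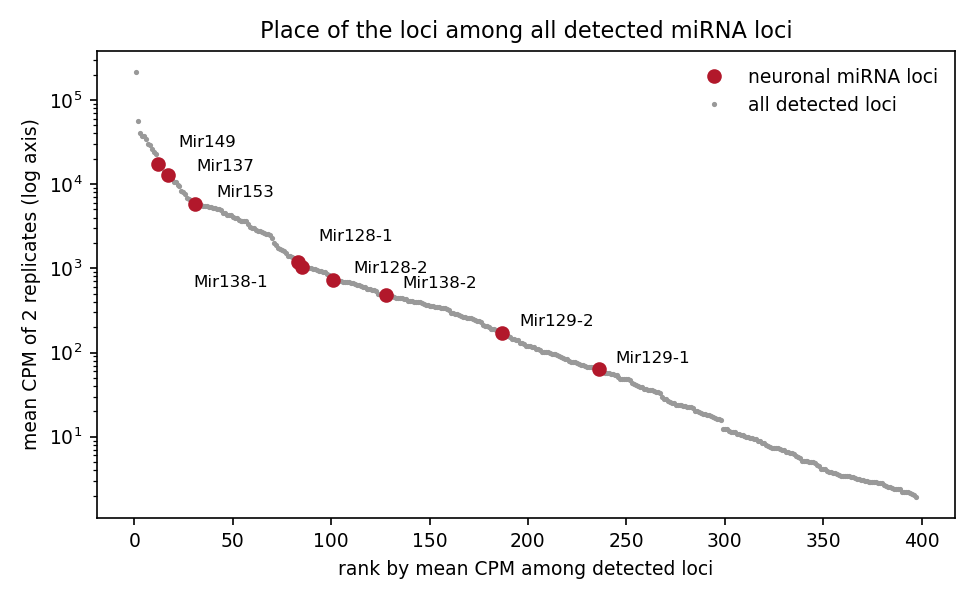
Mean CPM of 2 replicates (log axis) against rank for the 9 loci (red, labelled) and all 397 detected loci (grey). The 9 loci run from place 12 (Mir149) to place 236 (Mir129-1), and 8 of them lie among the 200 highest.

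Mir137 and Mir153 kept their ratio to each other more closely than Mir149 kept its ratio to Mir137. The reads of Mir137 were 2.18 times those of Mir153 in replicate 1 and 2.15 times in replicate 2. The reads of Mir149 were 1.48 times those of Mir137 in replicate 1 and 1.29 times in replicate 2. With 2 libraries no test of this difference was made.

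The copies of each 2-copy family share 1 mature arm letter for letter, which bears on how their reads could be counted. The hairpins of the 3 pairs are printed 5′ to 3′ from RefSeq (GRCm38.p6), with the longest exact stretch that the 2 copies share in capitals.
Mir128-1: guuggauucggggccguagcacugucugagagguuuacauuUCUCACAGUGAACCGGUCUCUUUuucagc
Mir128-2: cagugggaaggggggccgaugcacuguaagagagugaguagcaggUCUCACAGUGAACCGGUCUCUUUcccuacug
Mir138-1: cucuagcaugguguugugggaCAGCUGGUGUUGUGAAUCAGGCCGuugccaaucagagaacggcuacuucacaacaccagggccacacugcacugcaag
Mir138-2: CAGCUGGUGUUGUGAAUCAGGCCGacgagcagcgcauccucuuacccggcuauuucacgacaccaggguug
Mir129-2: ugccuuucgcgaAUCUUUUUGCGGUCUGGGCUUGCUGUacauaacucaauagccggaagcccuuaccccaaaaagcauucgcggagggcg
Mir129-1: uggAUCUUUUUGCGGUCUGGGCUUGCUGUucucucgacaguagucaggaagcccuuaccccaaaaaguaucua
The shared stretch is 23 nt in the miR-128 pair, 24 nt in the miR-138 pair and 26 nt in the miR-129 pair. In each it holds the whole arm printed above, miR-128-3p, miR-138-5p or miR-129-5p. A read of exactly that arm matches both copies, and the deposited tables hold reads that mapped to several places in a class apart from the genes, 36.2% of replicate 1 and 36.9% of replicate 2. The counts of these 6 loci are therefore uncertain and can be too low; how many such reads came from them was not measured. Mir137, Mir149 and Mir153 shared at most 12 nt with any other of the 1005 hairpins of the table. Copies of their sequences outside annotated hairpins were not searched for, so loss of such reads at these loci was not measured either.

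The arms that differ between copies are shown next, again with the seed in capitals, because a read of one of them can name its locus.
miR-128-1-5p: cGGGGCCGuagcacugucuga
miR-128-2-5p: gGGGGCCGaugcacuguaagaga
miR-138-1-3p: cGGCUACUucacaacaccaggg
miR-138-2-3p: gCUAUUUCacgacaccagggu
miR-129-2-3p: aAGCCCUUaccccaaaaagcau
The longest run of an arm found in the hairpin of the other copy was 7 nt for miR-128-1-5p and 7 nt for miR-128-2-5p. It was 9 nt for miR-138-1-3p and 9 nt for miR-138-2-3p. For miR-129-2-3p it was 19 of 22 nt. By bases that match without gaps, miR-128-1-5p and miR-128-2-5p agreed at 16 of 21 and miR-138-1-3p and miR-138-2-3p at 18 of 21, so the second arms of those pairs are also alike, but with differences spread along them.

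Within each family 1 copy held more reads in both libraries. Mir128-1 had 1.59 times the reads of Mir128-2 in replicate 1 (exact 95% interval 1.54 to 1.65) and 1.61 times in replicate 2 (1.54 to 1.69), a mean ratio of 1.60 ± 0.0153 (SD, n = 2). Mir138-1 had 2.18 times the reads of Mir138-2 in replicate 1 (2.10 to 2.27) and 2.13 times in replicate 2 (2.02 to 2.25), a mean ratio of 2.16 ± 0.0401. Mir129-2 had 2.47 times the reads of Mir129-1 in replicate 1 (2.22 to 2.76) and 3.02 times in replicate 2 (2.60 to 3.50), a mean ratio of 2.74 ± 0.385. The intervals of the 2 libraries overlapped in all 3 families, and all 6 lay above a ratio of 1. The copy on top was chosen as the larger in these same counts, so a mean ratio above 1 was given in advance. That both libraries had the same larger copy was not. These are ratios of reads that could be assigned to 1 locus, and they do not give the share of each copy in the mature miRNA that both make.

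**Figure D3:**
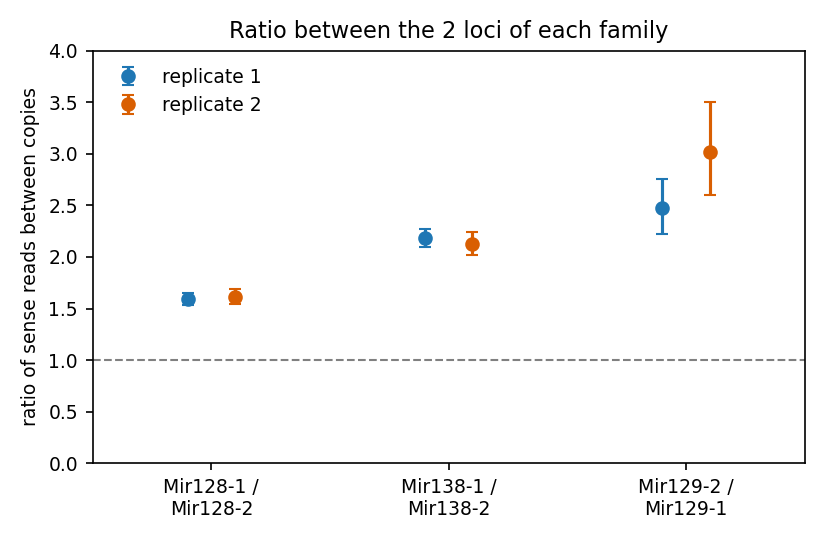
Ratio of sense reads between the 2 loci of each family (linear axis from 0) in replicate 1 (blue) and replicate 2 (orange), with exact 95% intervals for counting error; the dashed line marks equal reads. The ratio was near 1.60 for miR-128, 2.16 for miR-138 and 2.74 for miR-129, and each interval lies above the line. The copy with more reads in these data was put on top.

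Summed over copies, the assigned reads of miR-128 came to 1913 ± 245 CPM, those of miR-138 to 1531 ± 16.3 CPM and those of miR-129 to 236 ± 11.8 CPM (SD, n = 2). The median of the 3 single-copy loci exceeded that of the 6 loci with a copy by 4.41 ± 0.0913 on the log2(CPM + 1) scale (13.63 against 9.22). With the copies of a family summed, the difference was 3.05. No test was made, since the loci were chosen with results of these data known, and loss of shared reads and lower expression cannot be told apart in these counts.

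The loci lie in several kinds of gene, in coordinates of mouse assembly mm10. Of the 9, 4 are in introns of protein-coding genes on the same strand. Mir149 (chromosome 1, 92850378 to 92850443, plus strand) is intronic in Gpc1, which encodes the cell surface proteoglycan glypican 1. Mir153 (chromosome 12, 117250817 to 117250885, plus strand) is intronic in Ptprn2, a gene for a membrane protein of dense-core vesicles, 765 kb from the start of its host. Mir128-1 (chromosome 1, 128202361 to 128202430, plus strand) is intronic in R3hdm1, and Mir128-2 (chromosome 9, 112118636 to 112118711, minus strand) in Arpp21. R3hdm1 and Arpp21 encode related proteins with an R3H domain. These 4 intronic loci ranged from 734 CPM at Mir128-2 to 17513 CPM at Mir149.

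The other 5 loci lie within noncoding transcripts. Mir137 (chromosome 3, 118433857 to 118433929, plus strand) overlaps an exon of the noncoding gene Gm26871 in 2 of the 2 transcripts that span it. Mir138-1 (chromosome 9, 122682876 to 122682974, plus strand) is exonic in the transcribed pseudogene Gm47135, and Mir138-2 (chromosome 8, 94324311 to 94324381, plus strand) overlaps an exon of the long noncoding RNA C78859. Mir129-1 (chromosome 6, 29022619 to 29022691, plus strand) is exonic in the long noncoding RNA Gm3294. Mir129-2 (chromosome 2, 94241364 to 94241453, minus strand) is intronic in Mir670hg, a long noncoding RNA. Levels of these 5 ran from 63.1 CPM at Mir129-1 to 12716 CPM at Mir137. They overlapped the range of the loci in protein-coding hosts. The libraries hold small RNA, so that the levels of the host transcripts were not measured.

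Mir129-2 was the only one of the 9 with another detected miRNA in its host. Mir670, 19.9 kb away in Mir670hg, had 97.2 CPM in replicate 1 and 89.5 CPM in replicate 2, a mean of 93.4 ± 5.47 CPM. The level of Mir129-2 was 1.86 ± 0.271 times that of Mir670 (SD, n = 2). The count of Mir129-2 can lack reads of miR-129-5p, which Mir129-1 also encodes. Gm23630, in the same host, had 0 reads in both libraries, and Gm24155, 0.864 kb from Mir137 in Gm26871, had 1 read in replicate 1 and 0 in replicate 2. On the other strand at Mir129-2, where Mir129b is annotated, 0 reads were counted in either library, and none of the other 8 loci had an opposite-strand read. A count of 0 allows up to 3 reads (0.411 CPM in the first library, 0.756 CPM in the second), and this limit does not cover reads that map to several places, such as those of sequence complementary to miR-129-5p.

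The 2 libraries gave like levels for the 9 loci. With library sizes scaled by TMM, 0 of the 9 differed by more than 1.5-fold between the replicates, beside 16.6% of the 397 detected loci and 9.49% of the 274 loci whose count reached 100 in both, as it did at all 9. The largest of the 9 ratios, as log2(replicate 2/replicate 1), were 0.20 at Mir153, 0.18 at Mir137 and -0.20 at Mir129-1. The median coefficient of variation of CPM was 8.78% over the 9 and 12.6% over all detected loci. Low loci vary more by counting alone, and the 9 lie mostly among the higher ones, so these shares do not show that the 9 repeat better than other loci of their level.

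Loci of 1 family shifted alike in 2 of 3 families, but such likeness was not limited to families. In log2(replicate 2/replicate 1) after TMM scaling, Mir128-1 and Mir128-2 stood at 0.17 and 0.15, and Mir138-1 and Mir138-2 at -0.09 and -0.05. Mir137 and Mir153, of different families, stood at 0.18 and 0.20, close to the miR-128 loci. Mir129-2 and Mir129-1 stood at 0.08 and -0.20, and Mir149 at -0.01, the closest repeat of the 9 after this scaling. In all, 5 of the 9 were higher in replicate 2 after TMM scaling, beside 49.9% of detected loci. With plain totals 8 of the 9 were higher, beside 58.9% of detected loci, and the median of all detected loci also moved, to 0.09.

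**Figure D4:**
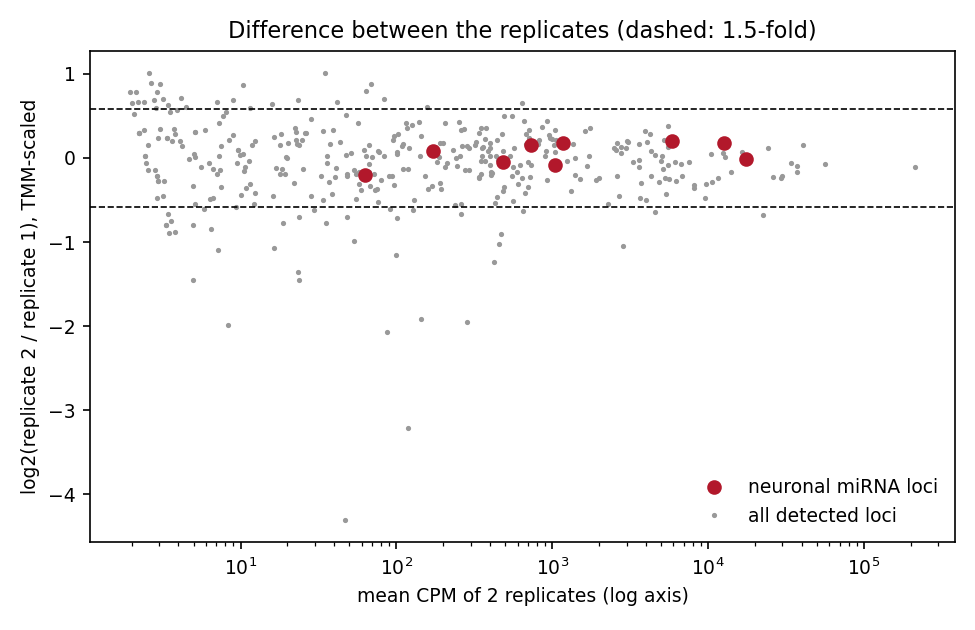
TMM-scaled log2(replicate 2/replicate 1) against mean CPM (log axis) for the 9 loci (red) and all 397 detected loci (grey); dashed lines mark 1.5-fold in either direction. The 9 loci lie between -0.20 and 0.20, all inside the lines.

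Markers of vessels and blood differed more between the libraries than the 9 loci did. The endothelial miRNA Mir126a had 18011 CPM in replicate 2 and 27037 CPM in replicate 1, and the 2 smooth muscle and pericyte loci had a sum of 3769 CPM in replicate 2, against 5529 CPM in replicate 1. The red cell list (3 of 3 loci detected) came to a sum of 153 CPM in replicate 2, against 486 CPM in replicate 1, and myeloid Mir223 had 24.5 CPM in replicate 2 and 212 CPM in replicate 1. All 4 values were thus lower in replicate 2. The part of such cells in the levels of the 9 loci was not tested. Among lists of other organs, the liver miRNA Mir122 had 12.2 ± 2.66 CPM and the striated muscle list summed to 26.5 ± 4.95 CPM, with 1 of 4 loci detected and Mir133a-1 and Mir133a-2 at 0 reads. The choroid plexus list summed to 713 ± 81.3 CPM (2 of 2 detected), the ciliated cell list to 1057 ± 297 CPM (3 of 5) and the epithelial list to 65.2 ± 6.58 CPM (6 of 6). The epithelial list covers the miR-200 family and Mir205 only. It leaves out Mir203, which had 731 ± 5.66 CPM. The fall in replicate 2 was not particular to vessels and blood. The ciliated cell list had 847 CPM there against 1267 CPM in replicate 1, the choroid plexus list 655 against 770 CPM and Mir122 10.3 against 14.1 CPM. The striated muscle and epithelial lists were higher in replicate 2, at 30.0 against 23.0 CPM and 69.8 against 60.5 CPM. In whole midbrain, fewer cells that hold a miRNA and less of it per cell cannot be told apart, and these data do not show in which cells the 9 loci were expressed.

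Set beside 25 loci of other miRNAs known from neurons or neural tissue, the 9 held the 3 highest levels. Of those 25 loci 23 were detected, and together they took 2.31% ± 0.150 of the sense reads (SD, n = 2), beside the 3.98% of the 9. Of the 25, 14 have 20 or more consecutive bases in common with a second miRNA hairpin in GENCODE M21, among them all 3 Mir124a loci, so their counts can be too low for the same reason as those of the 2-copy loci above. The 11 without such a stretch took 0.999% ± 0.0902 of the reads, beside 3.61% ± 0.327 for Mir149, Mir137 and Mir153, and had a median log2(CPM + 1) of 9.40, beside 13.63. For the 14 with one, the median was 8.45, beside 9.22 for the 6 loci of the 2-copy families. The median of all 25 was 8.63 on the log2(CPM + 1) scale, beside 10.03 for the 9. The highest of them were Mir125b-1 at 3321 ± 72.4 CPM, Mir708 at 3004 ± 440 CPM and Mir125b-2 at 2759 ± 210 CPM, and each had less than Mir153; all 3 are among the 14. The lowest was Mir124a-3, a locus of the neuronal miR-124, at 1.92 ± 0.577 CPM, a value that does not show how much miR-124 was present. The other 6 of the 9 were spread through the list. Mir128-1 and Mir138-1 were each above 18 of the 25, Mir128-2 above 16, Mir138-2 above 13, Mir129-2 above 8 and Mir129-1 above 6. Between the replicates 2 of the 23 detected loci differed by more than 1.5-fold, both higher in replicate 2, beside 16.6% of all 397 detected loci. Both lists were chosen with results of these data known, so their difference in level is a description. The ranking covers the listed loci only. Other loci at such levels, among them Mir181c at 17148 CPM and Mir181a-1 at 6180 CPM, are on neither list.

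**Figure D5:**
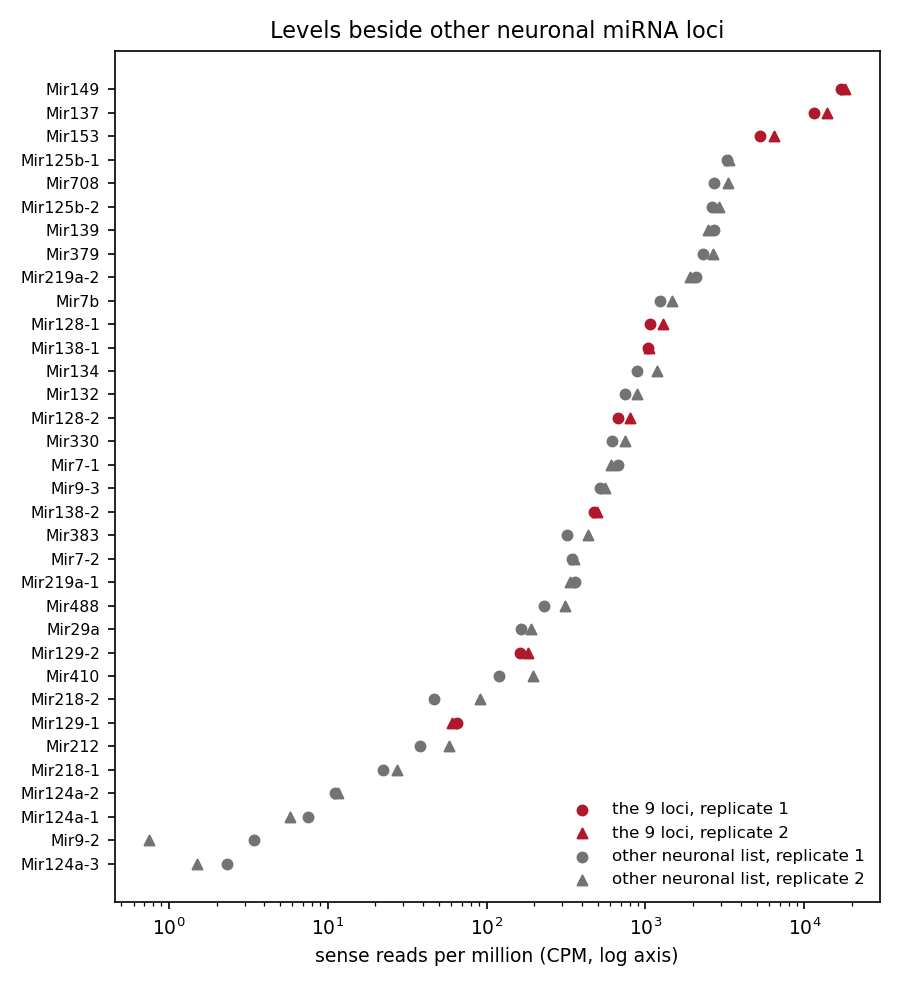
CPM (log axis) of the 9 loci (red) and of 25 other neuronal miRNA loci (grey), with circles for replicate 1 and triangles for replicate 2, ordered by mean. Mir149, Mir137 and Mir153 lie above all 25, and the remaining 6 are spread between Mir7b and Mir212.

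The loci nearest in level to each of the 9 were found over both libraries, as the closest detected locus above and below in mean log2(CPM + 1). Mir149 lay between Mir126a, 0.33 higher, and Mir181c, 0.03 lower at 17148 ± 755 CPM. Mir137 lay between Mir93 and Mir106b, neighbours in the same cluster, at 12813 ± 640 and 12435 ± 905 CPM, both within 0.03. Mir153 lay between Mir181a-1 (6180 ± 130 CPM) and Mir127 (5741 ± 889 CPM). Apart from Mir126a, each of these neighbours differed in mean CPM from its locus among the 9 by less than the SD of that locus. Mir128-1 lay between Mir467e and Mir325, Mir138-1 between Mir325 and Mir532, Mir128-2 between Mir132 and Mir203, and Mir138-2 between Mirlet7c-2 and Mir501. Mir129-2 lay between Mir29a and Mir505, and Mir129-1 between Mir190a and Mir34a. Likeness here is of level alone, in 2 libraries of 1 tissue.

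Base composition differed most between the highest loci. The hairpin of Mir149 had the highest share of G and C of the 9, 68.2%, and that of Mir153 the lowest, 42.0%, while Mir137 had 45.2%. The other 6 ran from 47.9% (Mir129-1) to 57.7% (Mir138-2). Hairpins were 66 nt (Mir149) to 99 nt (Mir138-1) long.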

How the data were processed

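The 2 small RNA libraries of embryonic midbrain at day 14.5 were analysed as 1 group, from the tissue label, with replicate numbers from the labels. The authors deposited raw read counts per miRNA gene for both strands, the annotated strand and the opposite strand; per the text deposited with each library they were made on assembly mm10 with annotation M4. Which aligner and counter were used is not given in the sources at hand. The 4 classes of reads outside genes were left out of totals.

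CPM were computed from sense counts over their total at 1973 loci, with Python 3.11.15 and SciPy 1.17.1. Identifiers were matched to GENCODE M21, without versions; 1894 loci matched. Printed sequences came from RefSeq. Loci with 10 or more reads in both replicates were called detected. Ratios between replicates used TMM in edgeR 4.0.16, and DESeq2 1.42.0 size factors were an alternative. TMM was tried on simulated counts with counting error only, which cannot show how it does with the spread of these libraries. Other alternatives were both strands, totals without Mir99a or over all reads, other minimums, pseudocounts and folds, and each replicate left out. Intervals are exact (Clopper-Pearson or Poisson) at 95%.

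The named loci were the 9, their neighbours in level and in their hosts, and the 3 highest and the lowest of the other neuronal list. The 9 loci, that list and the marker lists were chosen with earlier results of these data known. Mir9-1, Mir126b, Mir142 and Mir1a-2, also listed, have no count of their own here and were not analysed.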

Additional observations from a re-analysis of the deposited data

How the results depend on the processing

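The order of the 9 loci by level was the same under all 7 alternatives, but the equal order in both replicates fixed this outcome. Another total or scaling factor changes all loci of a library alike, and the 9 had no opposite-strand reads to add. All 9 passed each read minimum, beside 523 of all 1973 loci at 3 reads and 274 at 100 reads in each replicate. Between the replicates 0 of the 9 passed 1.5-fold under each scaling and filter tried. Over all loci kept, the share past 1.5-fold ran from 9.49%, with at least 100 reads in each replicate, to 36.6% without a minimum. Scaling by TMM or by DESeq2 size factors moved none of the 9 levels beyond its SD. Such factors raise values in either library as they lower them in the other, so a mean over both can hardly move. The median level of the 9, 1045 CPM, was 1024 CPM with both strands counted, 1331 CPM with Mir99a left out of the total and 431 CPM with all reads of the library as the total. Their summed share, 3.98%, was 5.06% without Mir99a in the total and 1.64% of all reads. The difference between single-copy and 2-copy loci, 4.41 on the log2 scale, was 4.73 from means in place of medians and 3.05 with the copies of a family summed. Leaving out a replicate gave a median level of 1042 to 1049 CPM, a share of 3.73% to 4.23% and a difference of 4.34 to 4.47. No paired analysis was possible because the series holds 1 group. Depth limits Mir129-1 most, whose 241 reads in replicate 2 gave 53.3 to 68.9 CPM (exact Poisson 95% interval).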

Other observations

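In replicate 2 Mir149 and the endothelial Mir126a had exactly the same sense count, 71446 reads, whereas in replicate 1 they had 124255 and 197441. Among the 169 loci with over 1000 sense reads in replicate 2, 4 values were each held by more than 1 locus, and among the 195 such loci of replicate 1 none was. No cause was tested.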
